A study of Mus musculus with 55 samples.

Results

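Solute carrier genes, whose symbols start with Slc and a subfamily number, were examined in mouse liver RNA. All genes with such a symbol were taken from the 2 deposited tables that compare TCPOBOP-treated livers with untreated livers, without use of their values. The set held 87 of the 4113 genes listed in either table, from 39 subfamily numbers. Of these, 79 of 3900 genes were listed for Setd8-LKO + TCPOBOP and 19 of 719 for WT + TCPOBOP, and 11 genes were listed in both. GENCODE M21 names 371 protein-coding Slc genes, and those outside the tables were not analysed here. Slc13a2os, an antisense RNA over Slc13a2, and Slc9a3r1, a scaffold protein that binds transporter tails, carry such a symbol without being carriers.

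RNA-seq covered 14 whole livers, 5 from untreated wild type (WT) mice, 5 from WT mice given TCPOBOP and 4 from Setd8-LKO mice given TCPOBOP. Setd8-LKO mice carry floxed Setd8 alleles, with exon 7 between the lox sites, and Cre under the albumin promoter. The paper describes the inactivation as specific to hepatocytes, and the state of the gene in other liver cells was not examined here. The mice were males of 45 to 50 days, and TCPOBOP, an agonist of the nuclear receptor CAR that drives hepatocytes to proliferate, was injected at 3 mg/kg 24 h before the livers were taken. The controls are labelled untreated, although corn oil is given as the vehicle in the methods and DMSO as the mock treatment in the Reporting Summary. Genotype and treatment therefore change together between Setd8-LKO + TCPOBOP and untreated WT, and a Setd8-LKO liver without TCPOBOP was not analysed here. Kmt5a, the gene of Setd8, had 563 to 761 normalized counts in untreated WT and 1313 to 1465 under the Setd8-LKO label, so that the groups are named by their labels only. Loss of a single exon cannot be read from counts summed over all exons. The paper reports lost staining for monomethylated H4K20, the histone mark that Setd8 makes, in TCPOBOP-treated Setd8-LKO hepatocytes.

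Solute carriers are membrane proteins that move small molecules across the plasma membrane or organelle membranes, by facilitated diffusion or coupled to ions. In liver, carriers on the sinusoidal membrane of hepatocytes take up bile acids, organic anions, amino acids, sugars and fatty acids from blood. Other members sit in the inner mitochondrial membrane, in lysosomes or in the endoplasmic reticulum, where they pass metabolites between compartments.

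Each library carries 1 of 2 run labels, A or B, and what a run stands for is not given in the sources used here. Run A held 3 untreated WT libraries, 3 WT + TCPOBOP libraries and 1 library labelled Setd8-LKO, and run B held 2, 2 and 3. Untreated WT libraries 3 and 5 deviated together from the group mean over the listed genes (Pearson's r = 0.48), as did libraries 1 and 2 (r = 0.53), while r between these pairs lay between -0.71 and -0.50. Libraries 1 and 2 are the untreated libraries of run B, and libraries 3, 4 and 5 those of run A. Fits without libraries 3 and 5 thus keep only library 4 of the untreated libraries of run A. The raw counts of the listed genes summed to between 5734065 and 12780869 per library in the first table and to between 1389901 and 3706582 in the second, which is not the depth because only selected genes are listed. A gene counted as called higher or lower when edgeR's quasi-likelihood test gave a Benjamini-Hochberg adjusted p under 0.05 and the log2 fold change was 1 or more in size. The methods call the RNA samples biological replicates, and the labels number them without naming animals.

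Promoters are printed where the data bear on them, from 250 bases before to 50 bases after the RefSeq start, 5′ to 3′ on the strand of the gene, in GRCm38.p6. Slc13a5 (chr11:72267112-72267411, minus strand) had the largest rise, and Slc15a5 (chr6:138079867-138080166, minus strand) the largest fall, among the genes with an H3K27ac or accessible peak at the start in only 1 of the 2 conditions. Capitals in Slc15a5 mark a match to TGATGNAA, the core of the ATF4 response element.
Slc13a5: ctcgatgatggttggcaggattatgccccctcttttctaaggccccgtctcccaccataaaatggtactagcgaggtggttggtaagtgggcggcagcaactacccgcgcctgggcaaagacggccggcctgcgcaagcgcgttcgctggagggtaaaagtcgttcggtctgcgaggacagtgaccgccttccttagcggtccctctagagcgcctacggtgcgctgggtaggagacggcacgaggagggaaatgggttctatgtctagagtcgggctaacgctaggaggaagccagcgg
Slc15a5: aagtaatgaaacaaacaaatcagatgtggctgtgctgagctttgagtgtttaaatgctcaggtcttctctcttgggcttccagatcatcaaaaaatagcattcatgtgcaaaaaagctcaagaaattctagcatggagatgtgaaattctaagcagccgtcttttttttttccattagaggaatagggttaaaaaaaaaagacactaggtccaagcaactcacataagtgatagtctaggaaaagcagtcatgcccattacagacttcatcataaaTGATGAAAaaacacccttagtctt
The next 3 promoters belong to Slc22 genes on chromosome 19 that moved in opposite directions, and they were chosen after their values were seen. They are Slc22a26 (chr19:7802618-7802917), Slc22a28 (chr19:8131933-8132232) and Slc22a30 (chr19:8405056-8405355), all on the minus strand. Capitals mark the 6 bases at which Slc22a28 and Slc22a30 differ within their aligned stretch.
Slc22a26: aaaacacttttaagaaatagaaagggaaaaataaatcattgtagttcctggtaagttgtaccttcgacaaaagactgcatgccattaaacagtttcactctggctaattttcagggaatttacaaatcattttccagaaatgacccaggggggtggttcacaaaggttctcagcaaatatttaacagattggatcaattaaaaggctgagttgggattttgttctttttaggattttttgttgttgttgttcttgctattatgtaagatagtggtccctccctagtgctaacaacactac
Slc22a28: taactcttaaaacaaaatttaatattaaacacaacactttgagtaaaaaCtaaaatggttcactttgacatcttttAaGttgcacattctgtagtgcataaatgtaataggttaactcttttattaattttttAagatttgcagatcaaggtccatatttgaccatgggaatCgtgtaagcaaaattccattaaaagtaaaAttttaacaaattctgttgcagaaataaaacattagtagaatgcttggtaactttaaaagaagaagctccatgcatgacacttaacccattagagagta
Slc22a30: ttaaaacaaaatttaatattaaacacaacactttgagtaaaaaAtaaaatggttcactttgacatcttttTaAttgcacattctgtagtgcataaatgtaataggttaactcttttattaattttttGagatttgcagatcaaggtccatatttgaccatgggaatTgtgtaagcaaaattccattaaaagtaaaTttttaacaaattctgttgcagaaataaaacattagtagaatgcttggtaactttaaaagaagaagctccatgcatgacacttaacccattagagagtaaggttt
Slc22a28 and Slc22a30 were identical at 288 of 294 aligned bases, while Slc22a26 matched Slc22a28 at 185 of 253 and Slc22a30 at 186 of 261. Over all alignment columns, gaps included, identity was 94.1% for Slc22a28 with Slc22a30. For Slc22a26 it was 53.3% with Slc22a28 and 54.9% with Slc22a30.

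Of the 79 members listed for Setd8-LKO + TCPOBOP against untreated WT, 75 passed the filter on low counts. Of these, 37 (49.3%) were called higher, beside 51.1% of all 3726 listed genes tested, and 31 (41.3%) lower, beside 35.0%. The listed genes were selected by the authors on the same libraries, so these shares describe the lists and are close to their background. The median log2 fold change was 1.06 over the members and 1.16 over all genes tested. The 2 groups of libraries did not overlap for 66 of the 68 called members (97.1%), beside 97.0% of all called genes, and the exceptions were Slc17a8 and Slc4a3. All 68 called members kept their direction in each run taken alone. When DESeq2's size factors, taken over the listed genes, set the scale, the log2 fold changes of all genes shifted by a median of -0.82. The split then became 12 higher and 35 lower, with no called member changing sign. Such factors take most genes as unchanged, although the listed genes were selected as changed. The shift therefore does not show which scale is right, here or in the classes below. Without untreated WT libraries 3 and 5, 58 of the 68 members remained called. A further 7 members were not called, and Slc6a7, Slc6a16, Slc13a4 and Slc26a3 were left out by the filter, with no more than 19 normalized counts in any library. Whole livers were sampled, so fewer cells of a type and less RNA per cell cannot be told apart. The paper reports a large loss of hepatocytes and more small mononuclear cells in Setd8-LKO livers after TCPOBOP. The part of this in the counts was not tested.

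**Figure D1:**
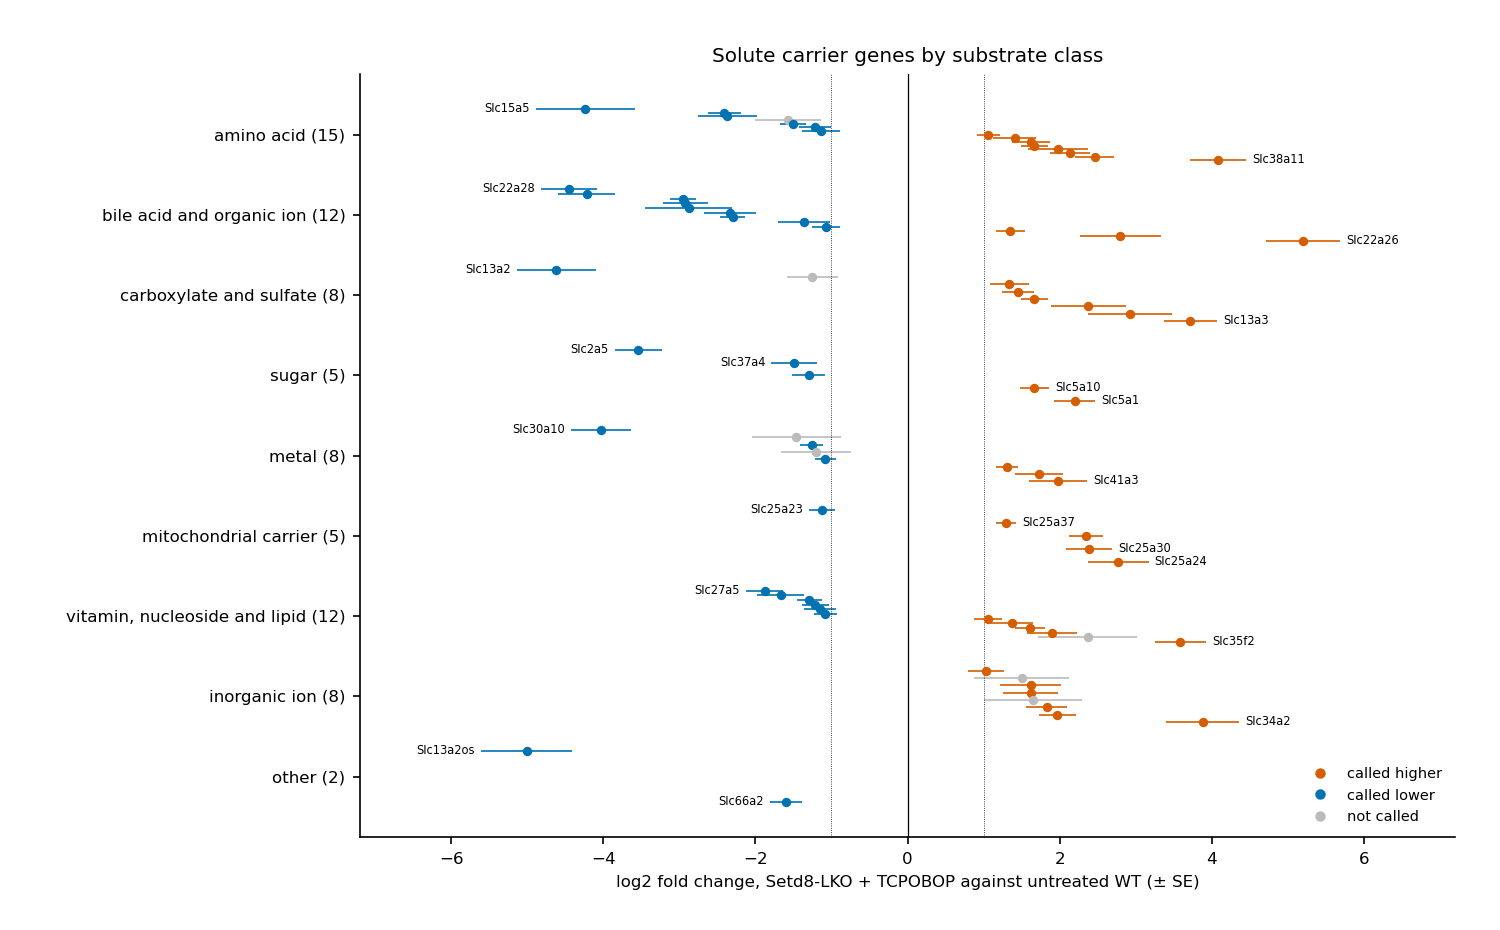
Log2 fold changes (horizontal axis, ± SE) of the 75 tested Slc genes in Setd8-LKO + TCPOBOP (n = 4) against untreated WT (n = 5), by substrate class (vertical axis, number of genes in parentheses), with dotted lines at a fold change of 1 on the log2 scale in either direction. In the bile acid and organic ion class 9 genes lie to the left and 3 to the right, and Slc22a26 is the gene farthest to the right, at 5.20.

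Bile acid and organic ion carriers made up the class with the most calls in the lower direction. Of its 12 tested members 9 were called lower and 3 higher, and their log2 fold changes had a median of -2.31. Over all 3726 listed genes tested, 35.0% were called lower and 51.1% higher, with a median of 1.16. These background values apply to every class below, and no class was tested against them. Scaling by size factors over the listed genes gave 9 lower and 1 higher. Slc22a30 (ENSMUSG00000052562, chromosome 19, 8335371 to 8405111, minus strand), a rodent organic anion transporter, had 11819, 9796, 8603, 6582 and 9024 normalized counts in untreated WT and 304, 324, 888 and 451 in the libraries labelled Setd8-LKO. The groups were far apart, with a log2 fold change of -4.22 (SE 0.37, edgeR adjusted p = 3.87e-05), -4.16 within run A and -4.42 within run B. Slc22a28 (chromosome 19, 8062209 to 8131982, minus strand) had 4592, 3900, 3426, 2430 and 3562 against 105, 97, 276 and 175 normalized counts. It was lower in each library labelled Setd8-LKO than in any untreated one, with a log2 fold change of -4.45 (SE 0.37, edgeR adjusted p = 2.60e-05). Slc22a26 (chromosome 19, 7781041 to 7802667, minus strand) went the other way, from 5, 9, 6, 3 and 17 to 394, 395, 120 and 273 normalized counts. Its log2 fold change was 5.20 (SE 0.49, edgeR adjusted p = 5.38e-05), the largest rise of the 75 members tested. Slc22a19, another organic anion transporter gene 69731 bp away, fell by 2.92 on the log2 scale, from 30 to 46 to 3 to 6 normalized counts. Slc22a26, Slc22a28 and Slc22a30 are close paralogs, so the split of reads between them is uncertain.

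Slc10a1, the sodium-coupled bile acid uptake carrier NTCP of hepatocytes, had 10211, 12824, 5431, 7860 and 6364 normalized counts in untreated WT and 1313, 1065, 2635 and 1773 in the libraries labelled Setd8-LKO. It fell by 2.33 on the log2 scale (SE 0.34, edgeR adjusted p = 0.000942), with -1.89 within run A and -2.78 within run B. Slc17a2 and Slc17a3, which carry phosphate and organic anions, lie 14254 bp apart on chromosome 13 and fell by 2.95 and 2.30. Slc17a2 went from 5102, 4140, 4495, 3836 and 3984 to 516, 470, 654 and 590 normalized counts (SE of the log2 fold change 0.17, edgeR adjusted p = 4.14e-06). Both had smaller SEs than the other genes of the class. Slc22a7, the organic anion transporter OAT2, had 1076, 775, 200, 685 and 208 normalized counts in untreated WT and 72, 67, 43 and 138 in the libraries labelled Setd8-LKO, with a log2 fold change of -2.88. Slc17a8 and Slc10a5 fell by 1.36 and 1.07. Slc51b, the beta subunit of the basolateral organic solute exporter, rose from 10, 1, 4, 1 and 7 to 40, 31, 44 and 14 normalized counts, with a log2 fold change of 2.80 (SE 0.53, edgeR adjusted p = 0.00582). Slc10a3, a relative of the bile acid carriers, rose by 1.35.

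Amino acid carriers were called in both directions. Of the 15 tested members 8 were called higher and 6 lower, with a median of 1.06 on the log2 scale. Scaling by size factors over the listed genes, 16 passed the filter with a median of -0.85, and 3 were called higher and 8 lower. Slc38a3, the glutamine carrier SNAT3, had 32158, 34547, 33867, 27621 and 33902 normalized counts in untreated WT and 5512, 4852, 5426 and 8638 in the libraries labelled Setd8-LKO. It fell by 2.41 on the log2 scale (SE 0.22, edgeR adjusted p = 4.64e-05), with -1.88 within run A and -2.66 within run B. Slc38a4, which carries neutral amino acids into hepatocytes, had 19031, 20100, 25868, 17531 and 28661 against 8912, 7929, 9351 and 11961 normalized counts. Its log2 fold change was -1.22 (SE 0.21, edgeR adjusted p = 0.00338) and -0.99, under the fold threshold, without untreated WT libraries 3 and 5. Slc15a5, a member of the peptide and histidine carriers, fell from 137, 163, 62, 126 and 72 to 2, 5, 16 and 1 normalized counts, with a log2 fold change of -4.24 (SE 0.65, edgeR adjusted p = 0.00138). Slc1a2, a glutamate carrier, fell by 1.51, Slc3a1, the heavy chain of a cystine carrier, by 2.37 and Slc43a1, a carrier of branched amino acids, by 1.14. Slc7a2, the arginine carrier CAT2, had 25273 and 24139 normalized counts in untreated WT libraries 3 and 5 and 6723 to 8553 in the other untreated libraries, against 3750 to 5540 in the libraries labelled Setd8-LKO. It was not called (log2 fold change -1.57, edgeR adjusted p = 0.0576), but was called lower with TMM factors (-1.54, edgeR adjusted p = 0.0409), with size factors over the listed genes (-2.32, 0.00612) and without untreated WT library 1, 2 or 4.

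Among the amino acid carriers called higher, Slc38a11, a relative of the SNAT carriers, had 35, 25, 11, 24 and 11 normalized counts in untreated WT and 348, 424, 214 and 461 in the libraries labelled Setd8-LKO, with a log2 fold change of 4.08 (SE 0.37, edgeR adjusted p = 4.51e-05). Slc1a4, the serine and alanine carrier ASCT1, had 86, 84, 95, 42 and 85 against 457, 580, 305 and 385. This gave a log2 fold change of 2.46 (SE 0.26, edgeR adjusted p = 0.000126), 2.38 within run A and 2.40 within run B. Slc7a11, the cystine and glutamate exchanger xCT, and Slc3a2, the heavy chain with which it pairs, were both called higher. Slc7a11 had 47, 53, 44, 42 and 55 against 191, 190, 123 and 92 normalized counts, with a log2 fold change of 1.63 (SE 0.25, edgeR adjusted p = 0.00129), 0.97 within run A and 1.76 within run B. Slc3a2 had 719, 703, 713, 660 and 627 against 1400, 1169, 1771 and 1360. The log2 fold change of Slc3a2 was 1.06 (SE 0.15, edgeR adjusted p = 0.000626) and 0.94, under the fold threshold, without library 3 labelled Setd8-LKO. The cationic amino acid carrier Slc7a1 rose by 2.14, Slc7a6, another light chain of Slc3a2, by 1.98, the creatine carrier Slc6a8 by 1.67 and the glycine carrier Slc6a9 by 1.41. With size factors over the listed genes Slc7a11 (0.77, edgeR adjusted p = 0.127) and Slc3a2 (0.28) were no longer called, whereas Slc1a4 (1.60) and Slc38a11 (3.22) were.

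**Figure D2:**
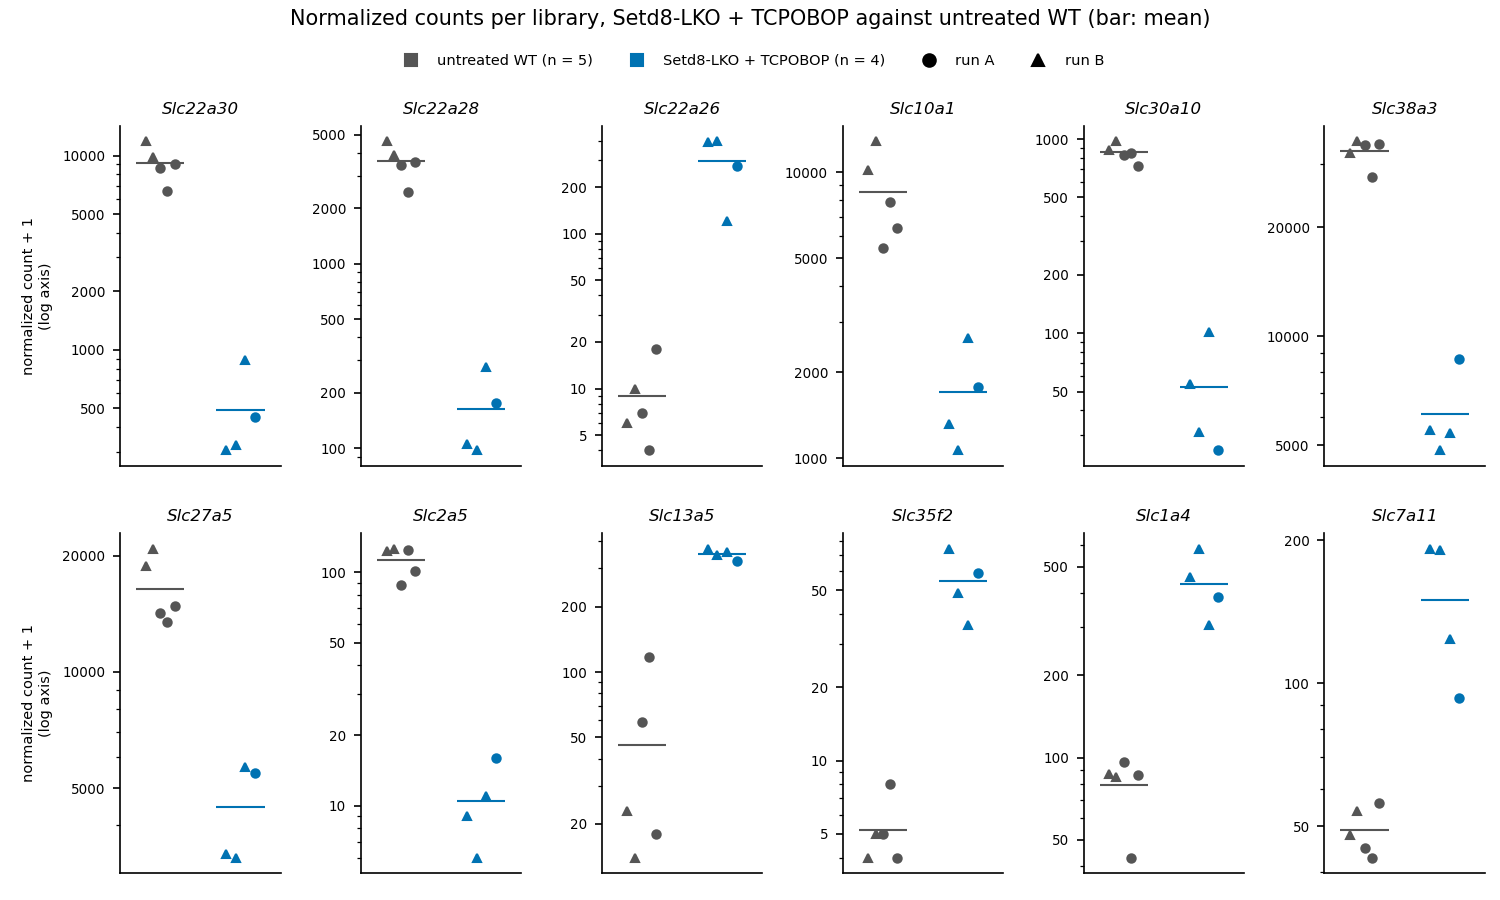
Normalized counts plus 1 (vertical log axis) of 12 Slc genes in untreated WT (grey, n = 5) and Setd8-LKO + TCPOBOP (blue, n = 4), 1 point per library with the mean as a bar, circles for run A and triangles for run B. The 2 groups do not overlap in any of the 12 panels, and Slc22a26, Slc13a5, Slc35f2, Slc1a4 and Slc7a11 lie higher in Setd8-LKO + TCPOBOP while the other genes lie lower.

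Carboxylate and sulfate carriers were mostly called higher, 6 of 8 tested with 1 lower, and had a median of 1.56 on the log2 scale. Over all listed genes tested, 51.1% were called higher and 35.0% lower, with a median of 1.16. Scaling by size factors over the listed genes gave 2 higher and 2 lower. Within subfamily 13, whose members take up dicarboxylates and citrate with sodium, the genes diverged. Slc13a2 (NaDC1, chromosome 11, 78397087 to 78422217, minus strand) had 115, 137, 250, 60 and 276 normalized counts in untreated WT and 5, 5, 10 and 7 in the libraries labelled Setd8-LKO. It fell by 4.62 on the log2 scale (SE 0.52, edgeR adjusted p = 0.000162). Slc13a2os lies on the plus strand of the same chromosome from 78394485 to 78405657, overlaps Slc13a2 over 8570 bp, and fell by 5.01. Whether the library kit kept the strand is not given in the sources used here, and without strand the reads of these overlapping genes cannot be told apart. Slc13a3 (NaDC3, chromosome 2, 165405028 to 165473230, minus strand) rose from 354, 256, 104, 269 and 155 to 3641, 3727, 2054 and 2605 normalized counts. Its log2 fold change was 3.72 (SE 0.35, edgeR adjusted p = 5.75e-05), 3.89 within run A and 3.36 within run B. Slc13a5, the citrate carrier NaCT of hepatocytes, whose promoter is printed above, had 22, 13, 58, 116 and 17 against 368, 344, 356 and 322. The untreated libraries spread widely and the others hardly at all, and the log2 fold change was 2.93 (SE 0.55, edgeR adjusted p = 0.00556), 2.34 within run A and 4.33 within run B.

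Among the monocarboxylate carriers of subfamily 16, Slc16a12, a creatine carrier, rose from 1192, 962, 756, 1124 and 757 to 2723, 3083, 3056 and 3342 normalized counts, with a log2 fold change of 1.67 (SE 0.18, edgeR adjusted p = 0.000112). Slc16a5 rose by 2.38, Slc16a6 by 1.45 and the lactate exporter Slc16a3 by 1.34, the last from 7 to 12 to between 21 and 32 normalized counts. Slc16a11 had 158, 188, 65, 103 and 68 against 43, 50, 43 and 60 and was not called (log2 fold change -1.25, edgeR adjusted p = 0.0621), although the groups did not overlap. It was called lower with size factors over the listed genes (-2.10, edgeR adjusted p = 0.00425) and without untreated WT library 3 or 5.

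Sugar carriers numbered 5, with 3 called lower and 2 higher, and 3 and 1 with size factors over the listed genes. Slc2a5, the fructose carrier GLUT5, fell from 123, 125, 87, 124 and 100 to 8, 5, 10 and 15 normalized counts, with a log2 fold change of -3.54 (SE 0.31, edgeR adjusted p = 3.69e-05). Slc37a4, the glucose-6-phosphate translocase of the endoplasmic reticulum needed for glucose release, had 2972, 3213, 1713, 3585 and 2299 against 758, 640, 988 and 1537. It fell by 1.49 on the log2 scale (SE 0.30, edgeR adjusted p = 0.00795), with -0.72 in run A alone and -1.96 in run B alone. The urate carrier Slc2a9 fell by 1.30. Of the sodium-coupled carriers, Slc5a1, the glucose carrier SGLT1, rose from 29, 16, 17, 30 and 13 to 98, 114, 94 and 86 normalized counts (log2 fold change 2.20) and Slc5a10 from 47, 49, 69, 50 and 63 to 182, 207, 169 and 153 (1.67).

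Vitamin, nucleoside and lipid carriers showed 5 higher and 6 lower among 12 tested, their log2 fold changes having a median of -0.01, and 1 and 6 with size factors over the listed genes. The fatty acid transport proteins Slc27a5, which also joins bile acids to coenzyme A, and Slc27a2 were lower in every library labelled Setd8-LKO. Slc27a5 had 18844, 20820, 14231, 13447 and 14842 against 3383, 3302, 5661 and 5485 normalized counts, with a log2 fold change of -1.88 (SE 0.24, edgeR adjusted p = 0.000425). Slc27a2 had 22935, 23230, 18588, 22426 and 16187 against 7889, 7298, 10886 and 11160, with a log2 fold change of -1.15 (SE 0.21, edgeR adjusted p = 0.00386). The folate carrier Slc19a1 fell by 1.29, the thiamine carrier Slc19a2 by 1.21, the lysosomal carrier Slc46a3 by 1.67 and Slc35e2, of the nucleotide sugar carrier family, by 1.08. Slc35f2, of the same family, rose from 3, 4, 4, 7 and 3 to 73, 48, 35 and 58 normalized counts, with a log2 fold change of 3.59 (SE 0.34, edgeR adjusted p = 5.44e-05). Slc23a2, the vitamin C carrier SVCT2, rose from 570, 418, 529, 608 and 434 to 1189, 1328, 1637 and 2115, with a log2 fold change of 1.61 (SE 0.20, edgeR adjusted p = 0.000303). The riboflavin carriers Slc52a3 and Slc52a2 rose by 1.90 and 1.37 and the choline carrier Slc44a2 by 1.06. Slc44a4 had 1 to 12 against 6 to 47 normalized counts, which overlapped, and was not called (log2 fold change 2.37, edgeR adjusted p = 0.0585).

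Metal carriers numbered 8, with 3 called higher and 3 lower, and 0 and 4 with size factors over the listed genes. Slc30a10 (chromosome 1, 185454848 to 185468762, plus strand), the manganese exporter, had 881, 971, 831, 849 and 729 normalized counts in untreated WT and 54, 30, 100 and 24 in the libraries labelled Setd8-LKO. It fell by 4.03 on the log2 scale (SE 0.40, edgeR adjusted p = 7.60e-05), with -5.06 in run A alone and -3.91 in run B alone. The lysosomal Slc49a4 fell by 1.26 and the copper importer Slc31a1 by 1.08. The magnesium carrier Slc41a3 rose by 1.98, the zinc importer Slc39a5 by 1.73 and the heme carrier Slc48a1 by 1.31. Slc41a2 (-1.20) and Slc30a3 (-1.46) had overlapping groups and were not called.

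Mitochondrial carriers of subfamily 25 were called higher in 4 of 5 cases, and in 3 with size factors over the listed genes, and 1 was lower in both. Slc25a30 had 901, 707, 666, 693 and 290 normalized counts in untreated WT and 4112, 3094, 2322 and 4166 in the libraries labelled Setd8-LKO, with a log2 fold change of 2.39 (SE 0.30, edgeR adjusted p = 0.000359). Slc25a24, a calcium-regulated exchanger of ATP-magnesium and phosphate, rose from 34, 35, 31, 34 and 39 to 413, 298, 91 and 140 (log2 fold change 2.77, SE 0.40, edgeR adjusted p = 0.000889). Its relative Slc25a23 fell from 5664, 5901, 4877, 4577 and 5587 to 2045, 2087, 2633 and 2959 (log2 fold change -1.13, SE 0.17, edgeR adjusted p = 0.00115), so that these exchangers moved in opposite directions. The ADP/ATP carrier Slc25a4 rose by 2.35 and the iron importer Slc25a37, mitoferrin 1, by 1.30. Inorganic ion carriers were called higher in 6 of 8 cases, with none called lower, and in 1 of 5 tested with size factors over the listed genes. Both classes are small, and 51.1% of all listed genes tested were called higher. The sodium and phosphate carrier Slc34a2 rose from 12, 10, 1, 10 and 2 to 122, 133, 73 and 91 normalized counts (log2 fold change 3.88, SE 0.48, edgeR adjusted p = 0.000339). The bicarbonate carrier Slc4a5 rose from 4, 5, 4, 4 and 4 to 17, 20, 17 and 16 (log2 fold change 1.97). Slc20a1, a phosphate carrier, rose by 1.83, Slc12a8 and the anion exchanger Slc4a3 by 1.62 each and the calcium exchanger Slc24a3 by 1.03. Slc4a9 (1.50) and Slc4a11 (1.65) overlapped between the groups and were not called. Slc66a2, a PQ-loop repeat protein, fell from 1798, 1965, 1097, 1263 and 1179 to 436, 473, 537 and 481 (log2 fold change -1.60).

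Summed by subfamily number, the members of subfamily 22 had 9730 to 17524 normalized counts per untreated WT library (median 12843) and 881 to 1332 (median 964) in the libraries labelled Setd8-LKO. Subfamily 17 went from 5491 to 7182 down to 804 to 1088, and subfamily 10 from 6575 to 13845 down to 1697 to 3475. Subfamily 38 held the largest sums, 45176 to 62574 in untreated WT and 13205 to 21060 in the other group. Subfamily 27 had 31029 to 44050 against 10600 to 16645. Subfamily 13 had 501 to 716 in untreated WT and 2426 to 4081 in the other group, and subfamily 16 had 1277 to 1698 and 4211 to 5187. Over all 79 listed members the sum was 156658 to 185103 in untreated WT and 67135 to 91633 in the libraries labelled Setd8-LKO. The raw counts of all 3900 listed genes also summed to less there, 5734065 to 8231255 against 11238950 to 12780869. The factors that scale them were smaller too, 0.752 to 0.855 against 1.03 to 1.25. A lower sum was thus not particular to the Slc genes. These sums are descriptions of genes that were selected on the same libraries. Per kb of exon, the members with the highest mean level in untreated WT were Slc27a5 (6742 normalized counts per kb), Slc38a3 (6143), Slc27a2 (5507), Slc38a4 (5219) and Slc10a1 (3883), and all 5 were called lower. In the libraries labelled Setd8-LKO their means were 1828, 1157, 2480, 2239 and 771 per kb. The 5 were picked by their level in untreated WT, the baseline of the same comparison, which favours falls. Their shared direction is therefore only a description.

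**Figure D3:**
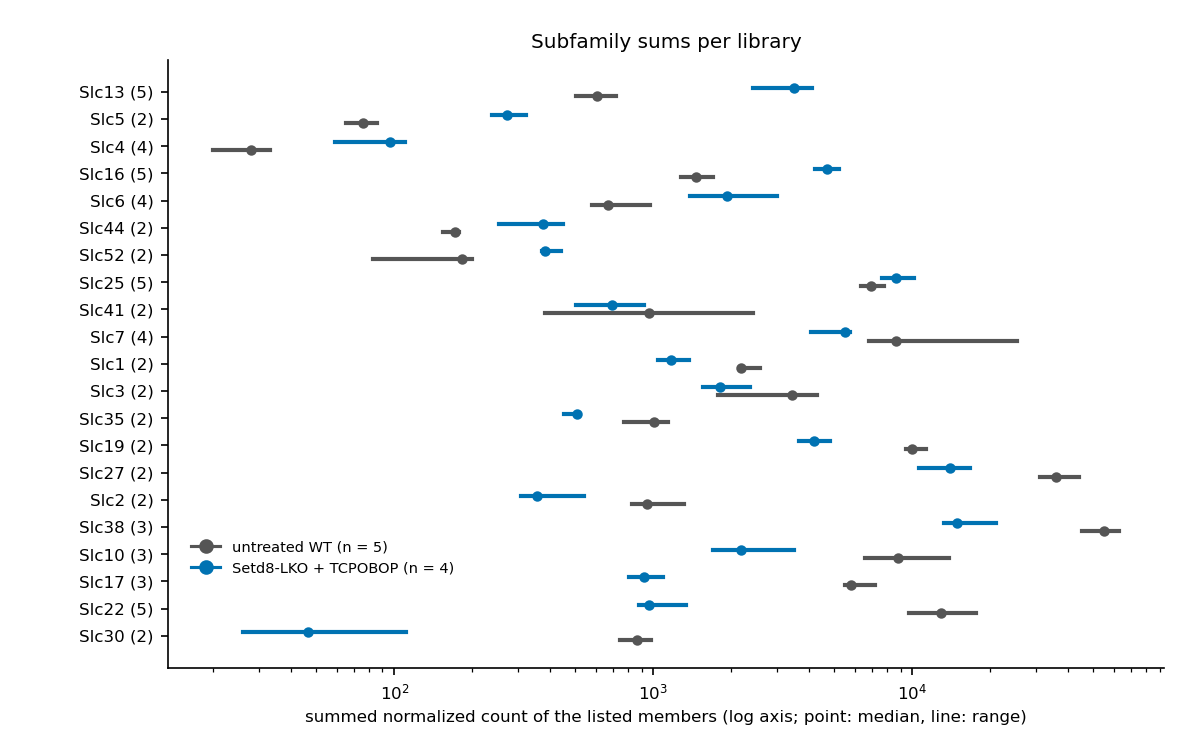
Normalized counts summed over the listed Slc members of a subfamily (horizontal log axis) for each subfamily with at least 2 members in the first table (vertical axis, number of members in parentheses), with the median of the libraries as a point and their range as a line, for untreated WT (grey, n = 5) and Setd8-LKO + TCPOBOP (blue, n = 4). Relative to untreated WT, the median is lowest for subfamily 30, at 46.5 against 863, and highest for subfamily 13, at 3484 against 608.

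Markers of some liver cell types, though not of all, also differed between these groups of libraries. Of 7 hepatocyte markers 5 were listed, all 5 called lower, with summed normalized counts of 1125513 to 1825692 in untreated WT and 458896 to 654526 in the libraries labelled Setd8-LKO. Of 5 cholangiocyte markers 4 were called higher, with sums of 422 to 686 against 1617 to 7426. Of 6 stellate cell and fibroblast markers 4 were listed, all called higher (2149 to 3317 against 5583 to 13103). Leukocyte markers S100a8 and S100a9 summed to 6 to 100 against 71 to 121 and were not called, the other 7 were not listed, and none of 5 endothelial markers was listed. Of 5 erythroid markers only Alas2 was listed, and it was called lower (1694 to 3148 against 182 to 443). The part of such markers in the changes of the Slc genes was not tested. Of 27 other transport genes tested, from the Slco, ABC, aquaporin and ATPase families, 13 were called higher and 13 lower. Of all 3726 listed genes tested, 51.1% were called higher and 35.0% lower.

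In WT + TCPOBOP against untreated WT, 19 members were listed and tested. Of these, 9 (47.4%) were called higher, beside 51.8% of all 679 listed genes tested, and 3 (15.8%) lower, beside 17.1%. The median log2 fold change was 1.35 over the members and 1.34 over all genes tested, and the groups did not overlap for any of the 12 called members, beside 99.4% of all called genes. With TMM factors over the listed genes, the log2 fold changes of all genes shifted by a median of -1.25. Then 3 members were called higher and 6 lower, and with size factors the shift was -1.17 with 4 higher and 6 lower. Both kinds of factor take most genes as unchanged, although the genes of this list were selected as changed. Without untreated WT libraries 3 and 5, 10 of the 12 members remained called. None of the markers listed above for liver cell types was in this table.

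Slc9a3r1, the scaffold protein NHERF1, had the most counts among the members called higher, 4318, 4408, 3445, 4462 and 3362 in untreated WT and 10613, 9472, 10316, 8300 and 7202 in WT + TCPOBOP. Its log2 fold change was 1.20 (SE 0.16, edgeR adjusted p = 0.00334), but -0.06 with TMM factors over the listed genes. Slc17a9, the vesicular nucleotide carrier, went from 199, 215, 97, 153 and 92 to 310, 372, 404, 408 and 432 normalized counts (log2 fold change 1.35, SE 0.27, edgeR adjusted p = 0.0381). Slc17a4, an organic anion carrier, went from 600, 604, 391, 503 and 510 to 121, 260, 209, 256 and 228 (log2 fold change -1.28, SE 0.23, edgeR adjusted p = 0.0208). The mitochondrial glutamate carrier Slc25a22 went from 2154, 2408, 4160, 3038 and 4706 to 1254, 1932, 1203, 1286 and 1177 (log2 fold change -1.26, SE 0.25, edgeR adjusted p = 0.0370). These 3 genes lay close to the threshold, and leaving out single libraries of either group ended the calls of Slc17a9 in 8, of Slc25a22 in 7 and of Slc17a4 in 5 of 10 cases. Slc10a2, the apical bile acid carrier ASBT, had 318, 328, 948, 399 and 1104 against 1447, 1514, 1471, 1429 and 1442 normalized counts and was not called (log2 fold change 1.24, edgeR adjusted p = 0.374), although the groups did not overlap. Slc2a2, the glucose carrier GLUT2, had 6129, 5785, 1659, 4087 and 2777 against 1391, 2326, 2210, 1374 and 1064, with overlap (log2 fold change -1.29, edgeR adjusted p = 0.330). The nucleoside carrier Slc28a1 (1.22, edgeR adjusted p = 0.0603) and Slc37a1 (1.38, edgeR adjusted p = 0.960) were not called.

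The 11 members listed in both tables are given with both comparisons side by side, which share their untreated libraries. Slc22a26 had 299, 411, 217, 95 and 132 normalized counts in WT + TCPOBOP, a log2 fold change of 4.84 against untreated WT (SE 0.54, edgeR adjusted p = 0.000876), beside 5.20 in Setd8-LKO + TCPOBOP. Slc34a2 had 146, 183, 110, 243 and 246 (4.70, SE 0.51, edgeR adjusted p = 0.000770), beside 3.88. Slc38a11 had 214, 123, 191, 174 and 132 (2.97, SE 0.35, edgeR adjusted p = 0.00120), beside 4.08. These genes had no more than 35 normalized counts in any untreated library and at least 73 in any treated one. Slc23a2 had 3886, 3760, 3105, 1678 and 2026 (2.50, SE 0.26, edgeR adjusted p = 0.000609), beside 1.61. Slc16a12 had 4356, 3745, 3706, 3395 and 3314 (1.95, SE 0.18, edgeR adjusted p = 0.000238), beside 1.67, and Slc25a37 had 2868, 2914, 3209, 2934 and 2820 (1.68, SE 0.14, edgeR adjusted p = 0.000101), beside 1.30. Slc13a3 had 1121, 659, 836, 854 and 1068, a 3.99-fold rise (SE 0.31 on the log2 scale, edgeR adjusted p = 0.00834), beside a log2 fold change of 3.72. The rises of these 4 genes in WT + TCPOBOP were no longer called with TMM factors, at log2 fold changes of 1.23 for Slc23a2 (edgeR adjusted p = 0.0723), 0.69 for Slc16a12 (0.242), 0.43 for Slc25a37 (1.00) and 0.75 for Slc13a3 (1.00). In Setd8-LKO + TCPOBOP the size factors over the listed genes likewise ended the calls of Slc23a2 (0.83), Slc16a12 (0.86) and Slc25a37 (0.49), but not that of Slc13a3 (2.84, edgeR adjusted p = 0.000157). Slc1a2, with 1163, 756, 925, 668 and 758 (-1.34, SE 0.18, edgeR adjusted p = 0.00258), beside -1.51, was the 1 gene of the 11 called lower in both. Slc7a2 (-1.34 and -1.57) and Slc16a11 (-1.07 and -1.25) were called in neither, though both were called lower in WT + TCPOBOP with TMM factors (-2.63, edgeR adjusted p = 0.0146, and -2.32, 0.00647).

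**Figure D4:**
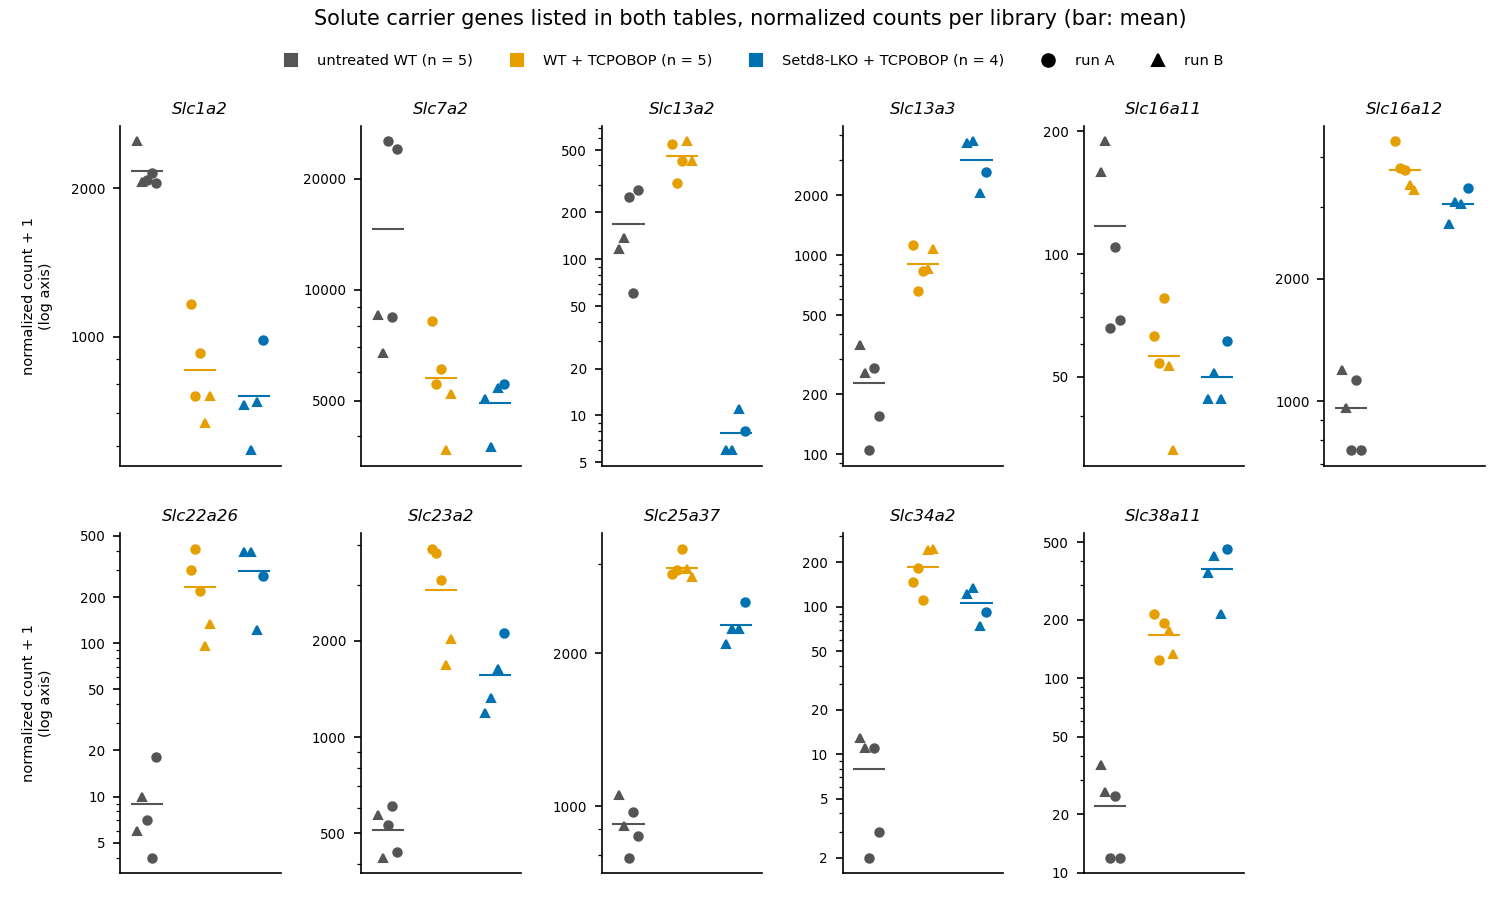
Normalized counts plus 1 (vertical log axis, own range in each panel) of the 11 Slc genes listed in both tables in untreated WT (grey, n = 5), WT + TCPOBOP (orange, n = 5) and Setd8-LKO + TCPOBOP (blue, n = 4), 1 point per library with the mean as a bar, circles for run A and triangles for run B. Slc13a2 lies at 306 to 569 in WT + TCPOBOP and at 5 to 10 in Setd8-LKO + TCPOBOP, and Slc13a3 at 659 to 1121 and 2054 to 3727.

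The untreated libraries carry the same raw and normalized counts in both tables for all 506 shared genes, so Setd8-LKO + TCPOBOP could be compared directly with WT + TCPOBOP over these genes. This comparison was added after the data were seen, and its groups share the treatment and differ in their genotype label. Of the 11 members 1 was called higher, beside 9.09% of the 506 genes, and 1 lower, beside 16.2%. The lower one was Slc13a2, with 548, 306, 429, 569 and 425 normalized counts in WT + TCPOBOP against 5, 5, 10 and 7 in the libraries labelled Setd8-LKO. It fell by 6.06 on the log2 scale (SE 0.50, edgeR adjusted p = 1.38e-05), with -5.94 within run A and -6.20 within run B, whereas in WT + TCPOBOP against untreated WT its log2 fold change was 1.44 (edgeR adjusted p = 0.239). The higher one was Slc13a3, which was also called higher in WT + TCPOBOP against untreated WT (3.99-fold) and had 659 to 1121 normalized counts there against 2054 to 3727 in the libraries labelled Setd8-LKO. Its log2 fold change between the treated groups was 1.73 (SE 0.31, edgeR adjusted p = 0.0244), and the call ended in 8 of the 9 fits that left out 1 library, with adjusted p values from 0.0218 to 0.122. The other 9 members had log2 fold changes from -0.88 (Slc23a2) to 1.11 (Slc38a11) and were not called. Only genes selected as changed against the same untreated libraries in both treated groups entered this comparison. The 68 members listed for Setd8-LKO + TCPOBOP only could not enter it. The members not called are therefore no measure of how alike the genotype labels are.

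Peak lists for H3K27ac, a mark of active promoters and enhancers, and for accessible chromatin by ATAC-seq were set beside the gene starts, 1 list each for untreated WT and Setd8-LKO + TCPOBOP. An H3K27ac peak lay within 1000 bp of the start in 23 of the 37 members called higher in untreated WT and in 26 in Setd8-LKO + TCPOBOP. These are 62.2% and 70.3%, beside 54.2% and 62.0% of all genes called higher. Of the 31 members called lower 20 had one in untreated WT and 18 in Setd8-LKO + TCPOBOP. These are 64.5% and 58.1%, beside 64.2% and 61.6% of all genes called lower. Peaks in the untreated WT list only stood at Slc15a5 (fold enrichment 12.0), Slc66a2 (8.54), Slc43a1 (7.62) and Slc22a7 (6.75), that is at 12.9% of the members called lower, beside 4.83% of all genes called lower. Within 5000 bp this held for 1 of the 31 members called lower (3.23%), beside 4.98%. Peaks in the Setd8-LKO + TCPOBOP list only stood at 3 members called higher, Slc12a8 (11.7), Slc13a5 (8.57) and Slc5a1 (8.11%, beside 8.62% of all genes called higher). They also stood at 2 called lower, Slc38a4 (35.1) and Slc1a2 (11.7) (6.45%, beside 2.22% of all genes called lower). Where both lists had a peak, fold enrichment was larger in Setd8-LKO + TCPOBOP at 17 of 23 members called higher (73.9%, beside 73.6% of all genes called higher) and at 4 of 16 called lower (25.0%, beside 32.9%). It went from 8.67 to 27.5 at Slc13a3, from 9.78 to 37.3 at Slc35f2 and from 6.45 to 23.1 at Slc44a2, all called higher, but from 23.9 to 15.4 at Slc10a3 and from 46.0 to 37.5 at Slc20a1, also called higher. The values went from 21.0 to 7.73 at Slc17a2, from 12.4 to 5.94 at Slc22a30 and from 22.0 to 14.8 at Slc10a1, all called lower, but from 23.8 to 24.7 at Slc30a10 and from 25.4 to 33.0 at Slc38a3. With 1 list per condition these values have no replicate error and were not tested.

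Accessible peaks stood at 13 of the members called higher in untreated WT and 9 in Setd8-LKO + TCPOBOP, and at 15 and 12 of those called lower. The former are 35.1% and 24.3%, beside 35.4% and 31.5% of all genes called higher. The latter are 48.4% and 38.7%, beside 48.0% and 39.5% of all genes called lower. Of those called lower, Slc22a30 (fold enrichment 7.04), Slc17a2 (6.39), Slc30a10 (5.03) and Slc35e2 (4.57) had one in the untreated WT list only (12.9%, beside 10.2% of all genes called lower), and Slc2a9 (5.85) in the Setd8-LKO + TCPOBOP list only. Of those called higher, Slc24a3 (9.54), Slc20a1 (6.32), Slc16a5 (5.61), Slc16a12 (4.49) and Slc41a3 (3.51) had one in the untreated WT list only (13.5%, beside 7.36%), and Slc6a9 (4.31) in the Setd8-LKO + TCPOBOP list only. CTCF peaks stood at 1 of the members called higher in untreated WT and at 16 (43.2%) in Setd8-LKO + TCPOBOP, beside 40.0% of all genes called higher, and at 0 and 7 (22.6%) of those called lower, beside 32.8%. SMC3, a subunit of cohesin, had peaks at 6 and 25 (67.6%, beside 60.5%) of the members called higher and at 1 and 12 (38.7%, beside 46.7%) of those called lower. In Setd8-LKO + TCPOBOP both lists thus held more Slc starts than in untreated WT, as they did over all listed genes. Islands of H4K20me3 over the start were in the Setd8-LKO + TCPOBOP list only for Slc22a30 (chr19:8400001-8460000, score 105), Slc22a28 (chr19:8120001-8140000, score 49.6) and Slc7a1 (chr5:148280001-148500000, score 91.1). The first 2 are 6.45% of the members called lower, beside 1.53% of all genes called lower. Slc7a1 is 2.70% of those called higher, beside 1.21%. Slc7a11 lay in a Lamin A/C island in both lists (chr3:49480001-50760000, scores 1250 and 1216) and in an H4K20me3 island in untreated WT (chr3:50420001-50760000, score 153), and Slc24a3 in a Lamin A/C island in untreated WT (chr2:144660001-145600000, score 984).

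**Figure D5:**
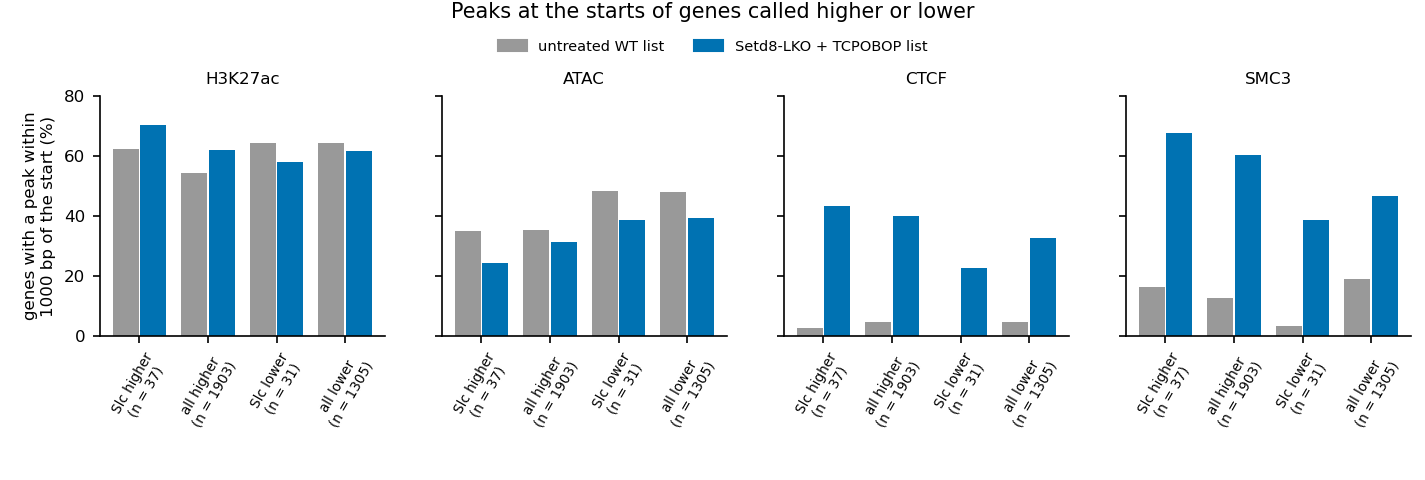
Share of genes with a peak within 1000 bp of the start (vertical axis, percent) for Slc genes and for all listed genes, each called higher or lower in Setd8-LKO + TCPOBOP against untreated WT (horizontal axis, n in parentheses), in the untreated WT list (grey) and the Setd8-LKO + TCPOBOP list (blue) of H3K27ac, ATAC, CTCF and SMC3. CTCF and SMC3 bars are higher in Setd8-LKO + TCPOBOP in every group, at 43.2% and 67.6% of the Slc genes called higher, and the lists carry no replicate error.

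RefSeq promoters were matched to 67 of the 87 members by symbol and searched on both strands for 6 motifs. Some matched promoters lay far from the listed start at which peaks were read, up to 47779 bp for Slc1a2. Motif matches counted below for Slc26a3 (47348 bp), Slc4a5 (17547 bp) and Slc41a3 (14521 bp) come from such promoters. The ATF4 core TGATGNAA was in 4 members, Slc7a11 (2 matches), Slc1a4, Slc15a5 and Slc49a4, of which the first 2 were called higher and the others lower, beside 3.97% of all 32851 promoters. The antioxidant response element core TGACNNNGC was in 12 members, 5 of 29 called higher (17.2%) and 5 of 25 called lower (20.0%), beside 12.4% of all promoters. Slc13a3, Slc16a12, Slc7a1, Slc7a6 and Slc44a2 were the 5 called higher. The E-box CACGTG was in 9 members (all promoters 7.15%), the TATA box TATAAA in 8 (13.6%), the HNF1 motif GTTAAT in 6 (7.10%) and the HNF4A site CAAAGTCCA in 1, Slc3a1 (0.475%). None of these strings contains another, and a match is a string of letters, not a bound site.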

How the data were processed

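RNA-seq tables and peak lists from mouse liver were used, 14 RNA libraries of 55 samples. For RNA, the authors' reads passed PRINSEQ filters and were mapped to mm10 (HISAT2) before metaseqR was run. The deposited tables hold raw counts and the authors' normalized counts (a score, raw count times 1 factor per library to within 0.0617%) of the genes they selected by a combined FDR and fold change. Their columns of p-values, FDR and fold changes were not used, nor were 114 other per-library columns. For chromatin, the authors aligned reads to mm10, reduced ChIP-seq and CUT&Tag samples to the smallest one, and called MACS2 peaks or SICER islands, 1 deposited list per condition, from 2 to 5 libraries. The deposited fold enrichment (a ratio), the −log10 p of each peak by the authors' MACS2 run, and the deposited island score were read as they stand.

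edgeR 4.0.16 (R 4.3.3) was fitted to the raw counts of all listed genes that passed filterByExpr at a count minimum of 10, by glmQLFit and glmQLFTest, and the libraries were scaled by the authors' factors. The Benjamini-Hochberg adjustment ran over 48651 GENCODE M21 genes of the listed biotypes, an upper bound. An adjustment over the number of genes the authors tested had been planned, but that number follows only from their own comparison columns. Calls needed an adjusted p under 0.05 and a log2 fold change of 1 or more in size. DESeq2 1.42.0 served alternatives. In data simulated from the tables, edgeR found 184 of 200 changed genes (92.0%) among 3206 for Setd8-LKO + TCPOBOP. For WT + TCPOBOP it found 169 of 197 (85.8%) among 612. At a log2 fold change of 2 in size it found 86% and 77%. Smaller changes were not simulated, and genes of low count were left unchanged. These shares therefore do not cover log2 fold changes near 1. Named genes are the 2 largest rises and falls of each class with groups that do not overlap, the 5 highest in untreated WT, every gene listed for WT + TCPOBOP or in both tables, and 18 liver carriers, of which 8 were listed. Other members are given briefly to account for the set. The members, classes and lists were chosen with earlier results of these data known. Gene positions are those of the tables (GRCm38), and promoters come from RefSeq on GRCm38.p6. Alternatives were other scalings, no filter, DESeq2, other adjustments, the run, the replicate number and left-out libraries.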

Additional observations from a re-analysis of the deposited data

Results flagged for a closer look

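Single libraries stood apart from the rest of their group in 7 of 109 groups examined, where chance gives about 1 in 20. Slc1a2 had 2489 normalized counts in untreated WT library 1 and 2053 to 2145 in the others, and Slc1a4 had 42 in untreated WT library 4 and 84 to 95 in the others. Slc25a22 had 1932 in WT + TCPOBOP library 2 and 1177 to 1286 in the others. The remaining cases were low counts, 7 for Slc35f2 in untreated WT library 4 (others 3 to 4), 5 for Slc4a5 in untreated WT library 2 (others 4), 44 for Slc39a5 in library 1 labelled Setd8-LKO (others 59 to 62) and 4 for Slc13a2os in library 2 labelled Setd8-LKO (others 5). None of these genes changed direction against untreated WT when a library was left out.

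Members of subfamily 13 differed between the genotype labels under the same treatment. Slc13a2 was lower in the libraries labelled Setd8-LKO than in WT + TCPOBOP by a log2 fold change of -6.06 and Slc13a3 higher by 1.73, both by edgeR's test of this difference, and the call of Slc13a3 rested on nearly every library.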

How the results depend on the processing

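For Setd8-LKO + TCPOBOP against untreated WT, 37 of 68 called members remained called under all 18 alternatives with a test, and none changed sign. Scaling by size factors over the listed genes gave 12 called higher in place of 37, and 43 of the 68 calls remained. TMM factors kept all 68, the run as a term kept 64. Leaving out single libraries gave 33 to 37 higher and 30 to 33 lower. For WT + TCPOBOP, 4 of 12 members, Slc1a2, Slc22a26, Slc34a2 and Slc38a11, remained called under all 19 alternatives. The numbers higher and lower were 9 and 3, against 3 and 6 with TMM factors, 4 and 6 with size factors over the listed genes, and 6 lower with adjustment over the listed genes only. Leaving out single libraries gave 8 to 10 higher and 1 to 3 lower, with 1 lower without untreated WT library 5, WT + TCPOBOP library 3 or WT + TCPOBOP library 5. The adjusted p then ranged from 0.0225 to 0.0750 for Slc17a4, from 0.0302 to 0.118 for Slc17a9 and from 0.0251 to 0.134 for Slc25a22. Without untreated WT libraries 3 and 5 together, Slc17a9 (1.02) and Slc25a22 (-0.89) were no longer called. With TMM factors the log2 fold changes of Slc10a2 (-0.03), Slc28a1 (-0.03) and Slc9a3r1 (-0.06) turned negative. In the comparison of the genotype labels under TCPOBOP, 2 members were called higher with adjustment over the listed genes, and leaving out single libraries gave 0 to 1. The signs of Slc16a11 (0.11), Slc16a12 (0.01), Slc1a2 (0.11) and Slc7a2 (0.06) turned with TMM factors and that of Slc7a2 (0.09) with the run as a term, none of them called. The cause of these changes was not tested.

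Replicate numbers did not pair the samples. Deviations of libraries with the same number correlated between -0.214 and 0.102 for Setd8-LKO + TCPOBOP and untreated WT, between -0.438 and 0.355 for WT + TCPOBOP and untreated WT, and between -0.333 and 0.013 for the treated groups. With the replicate number as a block, Setd8-LKO + TCPOBOP had 31 members called higher and 27 lower, WT + TCPOBOP had 6 and 1, and 0 higher between the treated groups, where Slc13a3 had a log2 fold change of 1.77.

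Peak counts at the Slc starts depended on the window. H3K27ac peaks in the untreated WT list only went from 4 to 1 of the members called lower at 5000 bp. Members with an untreated WT ATAC peak rose from 28 to 43 at 5000 bp, and those with a Setd8-LKO + TCPOBOP ATAC peak fell from 21 to 13 at 200 bp. Untreated WT CTCF peaks rose from 1 to 7 at 5000 bp. Untreated WT SMC3 peaks went from 7 to 18 at 5000 bp, to 3 at 200 bp and to 3 at a −log10 p of at least 20. Depth limits the low members, since Slc15a5, Slc22a19 and Slc13a2 had 1 to 16 normalized counts in the libraries labelled Setd8-LKO.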
